A study of Mus musculus with 3 samples.

Results

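In mouse bone marrow DNA, the 59 Rab GTPase genes were examined for 5-hydroxymethylcytosine (5hmC), which TET enzymes make by oxidising methylated cytosine. Membership went by symbol, as the protein-coding genes named Rab, a number and at most 1 letter, out of 21779 protein-coding genes in all. The choice of this set was made with earlier results of these data known. Genes of Rab interacting and Rab GTPase-activating proteins were not members. Rab proteins are small GTPases that switch between a GDP-bound and a GTP-bound form and sit on distinct membranes of the cell. In the GTP form they recruit effectors that move, tether and fuse vesicles, so each Rab marks a step of secretion, endocytosis, recycling or lysosomal delivery. In blood cells they are known for the release of granules, the maturation of phagosomes and the traffic of surface receptors.

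The series held 2 samples of an acute myeloid leukaemia called NIDF-AML and 1 sample of normal bone marrow, each of genomic DNA from bone marrow cells. Per the labels, the leukaemia was induced by FLT3-ITD, DNMT3A R882H, NPMc (the cytoplasmic NPM1 mutant) and IDH2 R140Q, and the normal marrow names no mutation or treatment. The promoter that drove the mutant genes, the strain and the age of the mice are not given in the sources used here. 5hmC was tagged with an azide-bearing glucose, coupled to biotin, captured and sequenced.

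Each leukaemia sample came with a list of peaks. The lists did not differ in any of their 223267 lines, so they were counted as 1 list. The treatment named in both file headers is index 4, set against index 5 in one and index 6 in the other, and no source used here says which sample carried index 4, or whether it was NIDF-AML or normal marrow. Every value below therefore describes the peaks of the index 4 library, with no replicate, no spread and no comparison of NIDF-AML with normal marrow. After repeated lines were counted once, 208468 peaks remained, and the read depth is unknown. No input sample is among the labels used here, so indices 5 and 6 may be other 5hmC libraries of the series, and a peak may then mark an excess over them. A gene without a listed peak is one for which none was listed, not one shown to lack 5hmC. As a description of the tissue, all 12 granulocyte and monocyte marker genes examined had peaks in or near them (4 to 34 per gene), as did 5 of 5 B cell, 4 of 4 T cell and 4 of 4 erythroid markers. Of 4 hepatocyte markers 2 had a peak, and of 4 neuronal markers 1. By the same count 73.1% of all genes had one, so these few markers do not identify the cells. In bulk DNA, more cells carrying 5hmC at a site and more of it per cell cannot be told apart.

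Because 5hmC in mammals lies mostly at CG dinucleotides, the sequence before the starts of a few members is shown before the values. All are RefSeq sequence of GRCm38.p6, the assembly behind mm10, and cover the 250 bases before the annotated start, 5′ to 3′ on the strand of the gene. They were chosen after the values were seen. Rab34 and an internal start of Rab43 are shown because a listed peak overlapped them, and there the capitals mark the bases inside that peak. Rab35, Rab27a and Rab17 are shown for contrast, as peak-rich genes with no peak over the start and a gene with no peak in its window, and there the capitals mark each CG. The start used for Rab17 (90967667) lies inside its span of 90958133 to 90969673, so its 250 bases are part of the gene.
Rab34, chr11:78188177-78188426, plus strand, capitals mark the peak: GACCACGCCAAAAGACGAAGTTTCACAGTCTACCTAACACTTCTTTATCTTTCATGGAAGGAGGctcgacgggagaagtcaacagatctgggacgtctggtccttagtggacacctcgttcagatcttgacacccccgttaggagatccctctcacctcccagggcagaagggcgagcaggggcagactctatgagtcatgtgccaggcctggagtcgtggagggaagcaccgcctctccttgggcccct
Rab43 internal start, chr6:87809758-87810007, minus strand, capitals mark the peak: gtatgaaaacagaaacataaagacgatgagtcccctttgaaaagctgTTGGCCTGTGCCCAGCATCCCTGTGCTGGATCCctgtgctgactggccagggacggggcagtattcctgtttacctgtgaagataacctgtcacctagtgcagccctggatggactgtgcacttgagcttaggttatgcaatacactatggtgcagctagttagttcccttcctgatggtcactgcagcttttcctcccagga
Rab35, chr5:115631737-115631986, plus strand, capitals mark CG: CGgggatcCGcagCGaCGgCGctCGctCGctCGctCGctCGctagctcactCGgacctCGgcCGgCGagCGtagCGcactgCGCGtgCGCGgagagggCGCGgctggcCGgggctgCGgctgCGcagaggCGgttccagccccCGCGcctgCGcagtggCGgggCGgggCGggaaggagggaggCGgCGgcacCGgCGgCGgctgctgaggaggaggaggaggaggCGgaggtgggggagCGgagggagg
Rab27a, chr9:73044560-73044809, plus strand, capitals mark CG: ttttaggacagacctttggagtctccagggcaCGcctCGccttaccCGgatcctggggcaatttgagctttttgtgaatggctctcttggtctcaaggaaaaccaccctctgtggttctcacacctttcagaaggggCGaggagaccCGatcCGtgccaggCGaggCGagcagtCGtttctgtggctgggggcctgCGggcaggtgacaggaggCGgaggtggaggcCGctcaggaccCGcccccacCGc
Rab17, chr1:90967668-90967917, minus strand, capitals mark CG: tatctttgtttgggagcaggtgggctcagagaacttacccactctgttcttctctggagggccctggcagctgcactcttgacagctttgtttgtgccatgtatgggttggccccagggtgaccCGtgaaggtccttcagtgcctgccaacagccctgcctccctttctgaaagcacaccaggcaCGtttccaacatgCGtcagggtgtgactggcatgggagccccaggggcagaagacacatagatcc

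Rab genes carried many 5hmC peaks. A peak in the gene span or within 5 kb of it, called the window below, was listed for 54 of the 59 Rab genes (91.5%, Wilson interval at 95% 81.6 to 96.3%), against 73.1% of all protein-coding genes. In the gene body itself, 53 Rab genes had a peak (89.8%), against 66.6% of all genes. The Rab windows held 693 different peaks, with a median of 8 per gene (quartiles 3.5 and 14), and all genes had a median of 4. Per kb of window the median Rab gene had 0.27 peaks and the median of all genes was 0.106. Rab genes were also longer, with a median span of 23.2 kb against 17.2 kb.

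To allow for length, each gene's count was placed among the 200 non-Rab genes nearest to it in span. In these sets the share of genes with a peak ran from 63.5% for Rab24 to 91.5% for Rab30, so the 73.1% above is not matched for span. Of the 59 Rab genes, 40 (67.8%) had more peaks than the median of their genes of like span, 2 had the same number and 17 had fewer, where 44.7% of all genes had more. The median Rab gene stood at percentile 70.0 of its genes of like span, against 48.0 for all genes. At or above percentile 90 stood 12 Rab genes (20.3%), against 10.3% of all genes. At or below percentile 10 stood 2, where 8.15% of all genes did. The exact Poisson interval of the count covers counting error only and takes peaks as independent. It lay above the like-span median for 27 of the 59 Rab genes, against 5861 of all 21779 genes (26.9%). For 5 of the 59 it lay below that median, against 3356 of the 21779 (15.4%). These figures describe 1 list of peaks, and no test was made of them, since genes are not replicates of a condition.

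**Figure D1:**
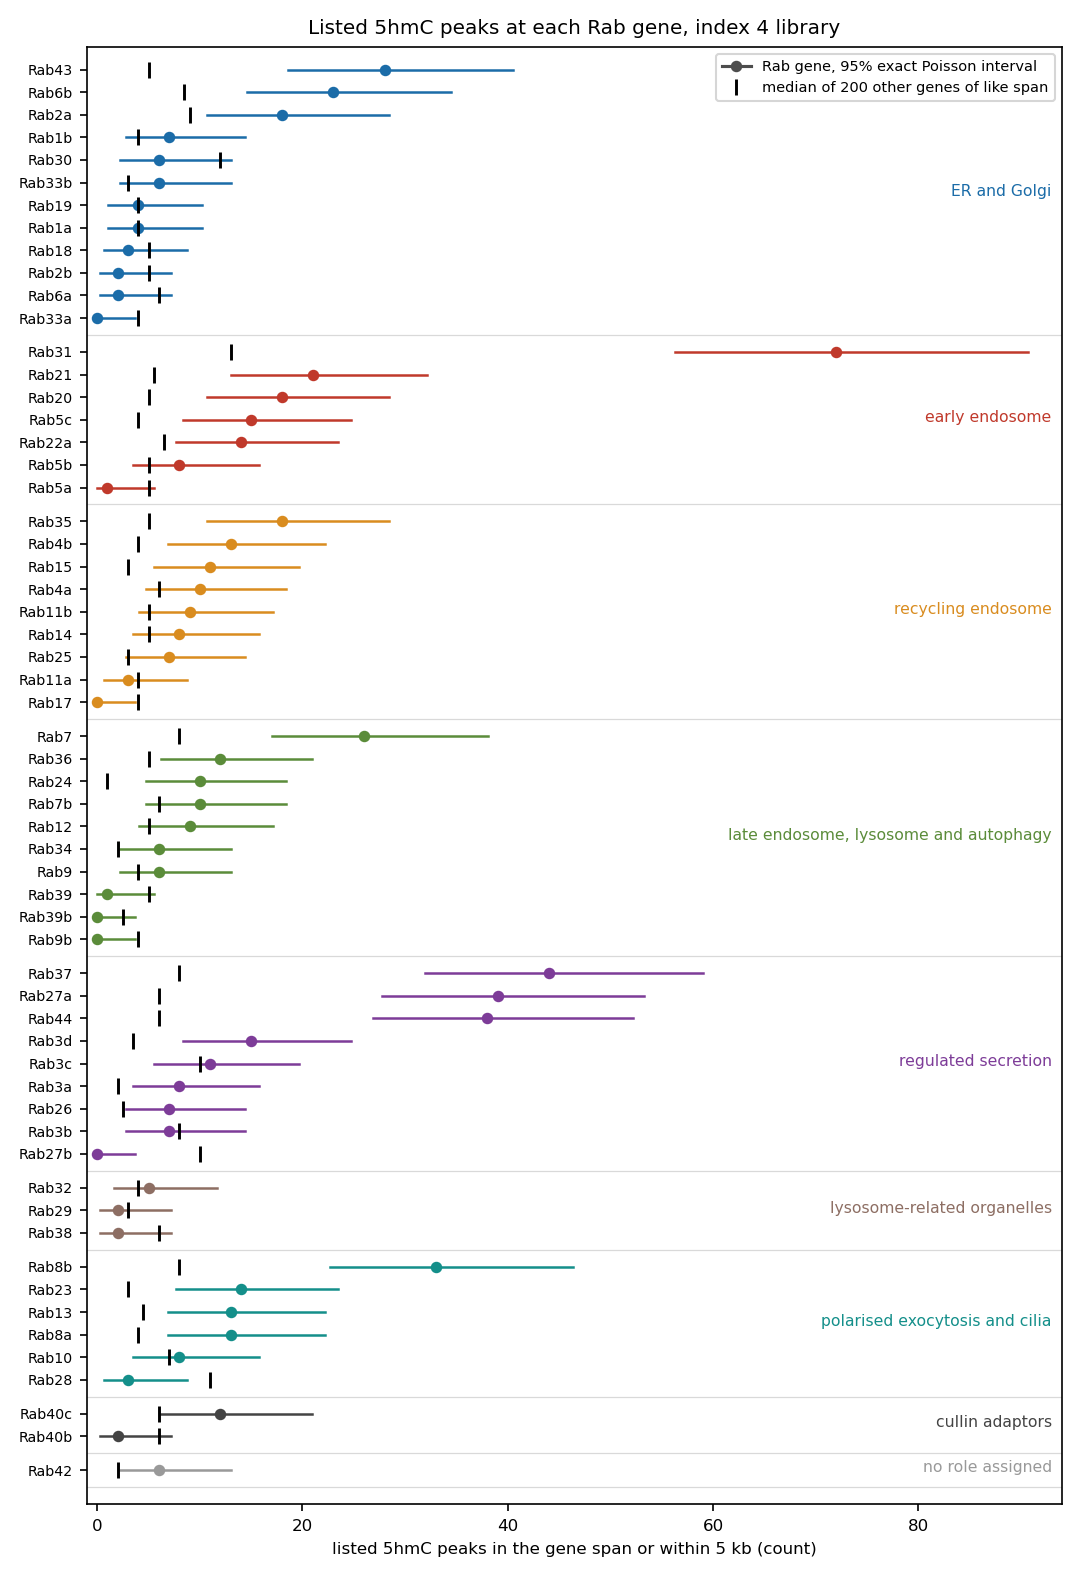
Listed 5hmC peaks in the span or within 5 kb of each of the 59 Rab genes (count, horizontal axis), grouped by role. Dots are counts with 95% exact Poisson intervals and black ticks are the median of 200 other genes of like span. Rab31 (72), Rab37 (44), Rab27a (39) and Rab44 (38) lie farthest to the right, and 5 genes lie at 0.

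The Rabs of regulated secretion, which act on granules and vesicles that wait for a signal to be released, had the highest median percentile of the role groups with 3 or more genes. All 9 were in the gene table and 8 had a peak, with a median of 11 peaks per gene and a median percentile of 90.2. That median percentile is the value of a single gene, Rab3a, and the next lower value was 80.0 at Rab26. For this and the role groups below, the share with a peak over all genes was 73.1%, with a median of 4. Rab37, which acts on secretory granules of mast cells, had 44 peaks (exact Poisson interval 32.0 to 59.1) over a span of 71.4 kb on chromosome 11 (115091331 to 115162773). Of its 40 peaks in the body, 10 also lay in the body of Cd300lf, an inhibitory receptor gene of myeloid cells that lies inside the Rab37 span. Rab37 had 15.2 kb of its span without a peak, from 40.1 to 55.2 kb along it.

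Rab27a, which docks granules at the plasma membrane and is the gene mutated in ashen mice, had 39 peaks (27.7 to 53.3) over 52.8 kb on chromosome 9 (73044810 to 73097623). Its like-span genes had a median of 6, and it stood at percentile 97.0. Rab44, a large atypical Rab, had 38 peaks (26.9 to 52.2) over 34.9 kb on chromosome 17 (29114128 to 29148980). At percentile 99 and 0.847 peaks per kb of window it was the highest of all Rab genes by both measures. Rab3d, a Rab of secretory granules, had 15 peaks and stood at percentile 95. Rab3a, the Rab of synaptic vesicles, had 8 peaks and percentile 90.2, but all 8 also lay within 5 kb of another gene.

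The other Rabs of secretion had lower places. Rab3c, the longest Rab gene at 226.8 kb, had 11 peaks and percentile 50.5, and Rab3b had 7 and percentile 42.5. Rab26, at 4.69 kb, had 7 and percentile 80.0. Rab27b, a Rab of platelet and mast cell granules, had none in its 162.5 kb on chromosome 18 (69979131 to 70141633), and the nearest listed peak was 93.1 kb away. Its like-span genes had a median of 10 peaks, and its percentile of 6.5 was the lowest of all Rab genes.

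The Rabs of early endosomes, which receive material taken up from the surface, all had a peak (7 of 7), with a median of 15 and a median percentile of 87.2. Rab31, which is close to Rab22a in sequence and acts between the Golgi and endosomes, had 72 peaks (56.3 to 90.7), the most of any Rab gene, over 121.0 kb on chromosome 17 (65651726 to 65772752). Of these, 63 were in the body, the like-span genes had a median of 13, and the percentile was 94.8. Rab21, which carries integrins into the cell, had 21 peaks and percentile 91.0. Its window held 0.559 peaks per kb, against 0.049 in the 500 kb on each side, a ratio of 11.4.

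Rab20, an endosomal Rab known from maturing phagosomes, had 18 peaks and percentile 87.2, and Rab22a had 14 and percentile 71.0. The 3 forms of Rab5, the main organiser of early endosomes, had unequal counts, and their intervals overlap except between Rab5c and Rab5a. Rab5c had 15 peaks (8.40 to 24.7), Rab5b had 8 (3.45 to 15.8) and Rab5a had 1 (0.0253 to 5.57). Of the 8 at Rab5b, 5 lay in the body of the neighbouring Pmel. The window of Rab5a had 0.026 peaks per kb and its 500 kb surroundings had 0.037.

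Of the 9 Rabs of recycling endosomes, which return receptors to the surface, 8 had a peak, with a median of 9 and a median percentile of 71.0. Rab35 had 18 peaks over only 15.3 kb on chromosome 5 (115631904 to 115647158), or 0.713 per kb of window, and percentile 94.8. Rab4b, a Rab of fast recycling, had 13 peaks and percentile 93.5, but 12 of them also lay within 5 kb of another gene and 5 inside one, 4 of these in Egln2. Rab15 had 11 peaks, Rab4a 10, Rab11b 9, Rab14 8, Rab25 7 and Rab11a 3. Rab17, a Rab of epithelial cells, had none. The 500 kb on each side of Rab17 held 0.222 peaks per kb, and the nearest peak lay 5.94 kb from the gene, just outside the window. The nearest peak to Rab33a, an X-linked member without one, lay 6.92 kb away.

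The 6 Rabs of polarised exocytosis and cilia all had a peak, with a median of 13 and a median percentile of 85.6, and all 6 were denser than the 500 kb around them. Over all genes, 45.3% were denser than their surroundings. Rab8b, a Rab of transport to the plasma membrane, had 33 peaks over 76.1 kb on chromosome 9 (66843609 to 66919705), all in the body, and percentile 91.5. A single stretch of 10 kb held 12 of them. Rab23, an inhibitor of Hedgehog signalling, had 14 peaks, and Rab13, a Rab of epithelial junctions, and Rab8a had 13 each. Rab10 had 8 and percentile 53.8. Rab28 had 3 over 83.2 kb, where its like-span genes had a median of 11, and 51.1 kb of its span held no peak.

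Late endosomal, lysosomal and autophagic Rabs had a peak at 8 of 10 genes, with a median of 7.5 and a median percentile of 64.9. Rab7, which drives fusion of late endosomes with lysosomes, had 26 peaks (17.0 to 38.1) over 46.2 kb on chromosome 6 (87999106 to 88045270), and percentile 86.2. Rab36 had 12, Rab24 and Rab7b 10 each, Rab12 9, Rab34 and Rab9 6 each and Rab39 1, while Rab39b and Rab9b had none. Rab24, a Rab linked to autophagy, reached percentile 97.0 with a span of 2.76 kb. Only 3 of its peaks lay in its body, all 10 lay within 5 kb of another gene, and 6 lay inside Nsd1, Mxd3 or Prelid1.

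The 12 Rabs of the endoplasmic reticulum and Golgi ranged from 0 to 28 peaks, where those of regulated secretion ranged from 0 to 44. Although 11 of them had a peak, the median was 5, the median percentile was 49.9, and 5 of the 12 exceeded the median of their genes of like span. Over all genes 44.7% did and the median percentile was 48.0, so the group stood near all genes. Rab43, a Golgi Rab, had 28 peaks (18.6 to 40.5) over 23.3 kb on chromosome 6 (87788853 to 87812164), or 0.841 per kb of window, and percentile 97.8. None of the 28 lay within 5 kb of another protein-coding gene. Rab6b had 23 peaks and Rab2a 18. Rab1b had 7, Rab30 and Rab33b 6 each, Rab19 and Rab1a 4 each, Rab18 3, Rab2b and Rab6a 2 each and Rab33a none. The Rab1 proteins carry vesicles from the endoplasmic reticulum to the Golgi. Rab30 spans 102.9 kb, and its like-span genes had a median of 12.

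Of the Rabs of lysosome-related organelles, Rab32 had 5 peaks, Rab38 2 over 61.3 kb and Rab29 2. Rab32 and Rab38 are known from melanosomes. Of the Rab40 genes, whose proteins also serve as substrate adaptors of cullin ligases, Rab40c had 12 peaks and Rab40b 2. Rab42, placed in no role group, had 6 peaks, of which 1 lay in its 2.94 kb body. With repeated lines kept, the counts of 32 Rab genes were higher, 7 of them by over 1.5 times. These were Rab42 with 21, Rab34 with 15, Rab24 with 18, Rab20 with 29, Rab26 with 12, Rab6a with 4 and Rab39 with 2.

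**Figure D2:**
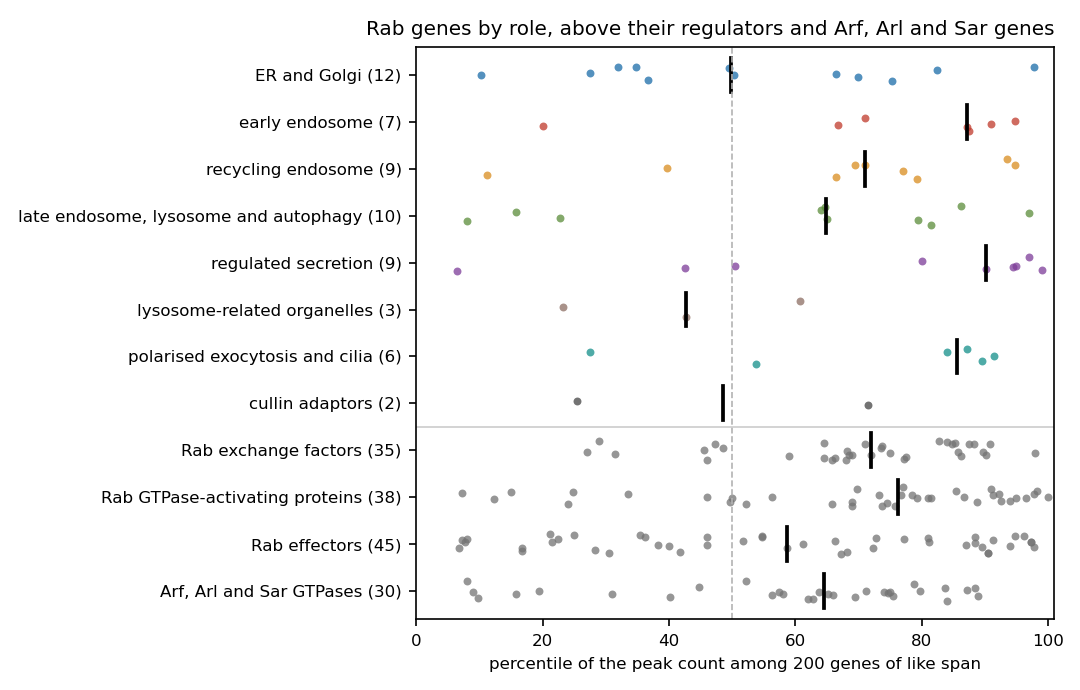
Percentile of each gene's peak count among 200 genes of like span (horizontal axis), for Rab genes by role (coloured) above Rab regulators and Arf, Arl and Sar genes (grey). Points are genes, black bars are medians, numbers in brackets are genes, and the dashed line marks percentile 50. The medians of regulated secretion (90.2), early endosome (87.2) and polarised exocytosis and cilia (85.6) lie to the right, and that of ER and Golgi (49.9) near the line.

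Some close paralogues had very different counts. Of the 59 genes, 31 fell into 14 groups that share a number and differ by letter, which gave 21 pairs, and in 5 pairs the Poisson intervals did not overlap. The intervals are of counts not adjusted for span. No such share was computed over other pairs of genes, so 5 of 21 is not a result about paralogues as a set. Rab27a had 39 peaks and Rab27b 0. Rab8b had 33 and Rab8a 13, but per kb of window Rab8b had 0.383 and Rab8a 0.431, as Rab8b spans 76.1 kb and Rab8a 20.2 kb. Rab6b had 23 peaks (14.6 to 34.5) and Rab6a 2 (0.242 to 7.22), or 0.275 and 0.0458 per kb. Rab2a had 18 (10.7 to 28.4) and Rab2b 2, or 0.219 and 0.0724 per kb. Rab5c had 15 and Rab5a 1, or 0.452 and 0.026 per kb.

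In the other 16 pairs the intervals overlapped, which does not show that the genes were alike. Among them were Rab40c and Rab40b (12 and 2), Rab11b and Rab11a (9 and 3), Rab7 and Rab7b (26 and 10), Rab4b and Rab4a (13 and 10) and Rab1b and Rab1a (7 and 4). The 4 Rab3 genes had 15 (Rab3d), 11 (Rab3c), 8 (Rab3a) and 7 (Rab3b) peaks, but from 0.724 peaks per kb at Rab3d to 0.0465 at Rab3c. Per kb, their order was thus Rab3d, Rab3a, Rab3b and Rab3c, with 0.575 at Rab3a and 0.0943 at Rab3b.

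Of the 4 X-linked Rab genes, Rab33a, Rab39b and Rab9b had no peak, and 1 (25.0%) had one. Of all 963 X-linked protein-coding genes, 29.6% had one. Rab9, which returns receptors from late endosomes to the Golgi, had 6 peaks (2.20 to 13.1), all in its body on chromosome X (166457251 to 166479867). They lay between 8.06 and 17.3 kb from the lower end of the 22.6 kb span, so that a stretch of 10 kb held all 6. Its window had 0.184 peaks per kb and the 500 kb on each side 0.016, a ratio of 11.5. Without the X chromosome, 53 of 55 Rab genes had a peak (96.4%), against 76.1% of autosomal genes.

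**Figure D3:**
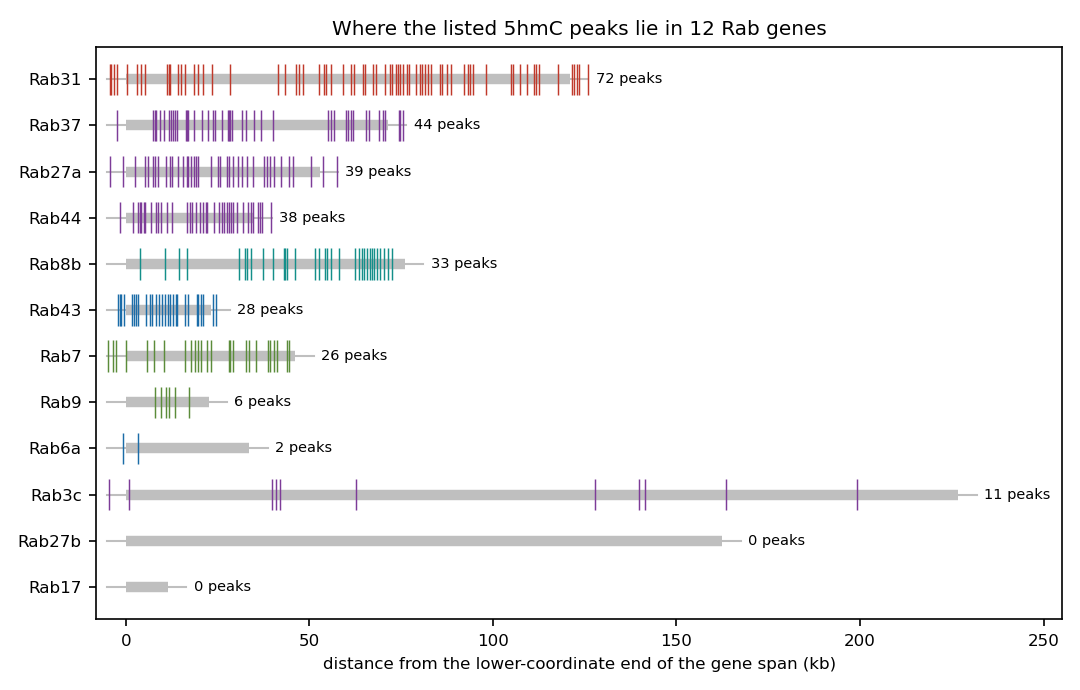
Position of each listed 5hmC peak (coloured ticks) along 12 Rab genes, as distance in kb from the lower-coordinate end of the span. Thick grey bars are gene spans and thin lines the 5 kb flanks. Rab8b holds a dense run toward its right end, Rab37 has a gap from 40.1 to 55.2 kb, the 6 peaks of Rab9 sit together, and Rab27b and Rab17 hold none.

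Peaks of Rab genes lay in the gene body about as often as the peaks of all genes. Of the 693 peaks, 547 (78.9%, Wilson interval 75.7 to 81.8%) were in the body and 146 in the flanks, where the share in the body over all genes was 77.6%. Bodies also made up most of the 2704 kb of Rab windows, so this share by itself does not show a preference for the body. Dividing each span into 5 equal parts from its lower end gave 108, 97, 113, 113 and 116 body peaks. Rab peaks were narrow, at a median of 65 bp (quartiles 49 and 81 bp), and the median over the whole list was also 65 bp. Positions above 67108864 bp are all multiples of 8, which touches 53.4% of the Rab peaks. Below that bound positions can be rounded too, as at Rab23, where all listed positions are even. The 53.4% therefore understates the peaks with rounded positions, and their widths are rounded as well. Of the 693, 59 (8.51%) lay inside another protein-coding gene, 49 of them in the flanks. Over all genes, 11.2% of the peaks assigned to a gene lay inside another. In 12 of the 59 Rab genes, against 21.7% of all genes, most peaks also lay within 5 kb of another gene, so that these peaks could be assigned to either. The 12 were Rab14, Rab19, Rab1b, Rab24, Rab25, Rab26, Rab34, Rab3a, Rab40b, Rab4b, Rab5b and Rab6a.

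Around the start of Rab genes the list had a gap. The start and strand of 48 Rab genes were in the RefSeq promoter table, and 39 of these span at least 10 kb. Some of these starts lie inside the gene span, as at Rab17 and Rab21, so part of the upstream stretch there is gene body. In those 39, the first 500 bp after the start held 0 peaks, or at most 0.189 peaks per gene and kb by the upper Poisson bound, and the next 500 bp held 1. From 1000 to 2500 bp there were 28, or 0.479 per gene and kb (0.318 to 0.692), against 0.258 (0.251 to 0.266) over 11080 protein-coding genes. From 5000 to 10000 bp there were 67, or 0.344 per gene and kb (0.266 to 0.436), against 0.199.

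Upstream, the last 500 bp before the start held 2 peaks, and the 500 bp before that held 7, or 0.359 per gene and kb (0.144 to 0.74) against 0.24. All genes also had their lowest density in the first 500 bp after the start, at 0.0982 per gene and kb, which lies inside the interval for Rab genes there. From 2500 to 5000 bp the Rab genes had 0.318 (0.216 to 0.451), against 0.218 over all genes. The 2 sets were not matched for span, the intervals cover counting error only, and the differences were not tested.

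**Figure D4:**
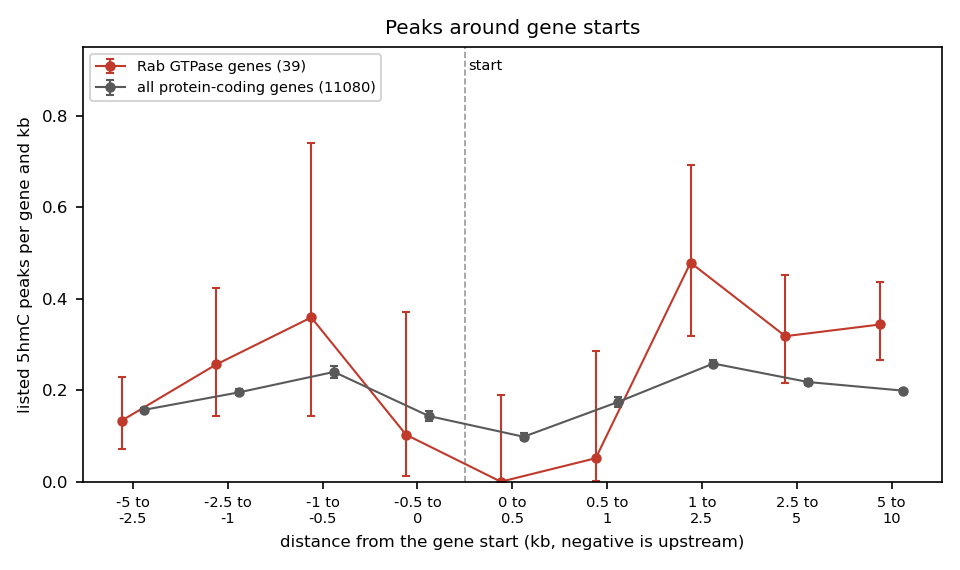
Listed 5hmC peaks per gene and kb by distance from the annotated start (kb, negative is upstream), for 39 Rab genes and 11080 protein-coding genes that span at least 10 kb. Bars are 95% exact Poisson intervals. Both curves are lowest just after the start, and from 1 to 2.5 kb the Rab genes reach 0.479 against 0.258.

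The sequence at the starts of Rab genes was rich in CG. The 300 bp windows from 250 bases before to 50 after the start held a median of 20 CG (quartiles 12.8 and 27, range 5 to 43) in the 48 Rab genes, against 13 in 17492 protein-coding genes. CG was searched as these 2 letters, which read the same on both strands. All 48 Rab windows held at least 1 CG, as did 94.8% of all windows. A peak overlapped this window by at least 1 bp in 1 of the 48 Rab genes (2.08%), against 4.01% of all genes. A peak lay within 1 kb of the start in 16 (33.3%), against 25.9% of all genes.

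Over all genes the share of windows with a peak was highest at 5 to 14 CG, at 9.41%, and it was 1.17% in windows with 25 or more. The 20 Rab windows with 25 or more CG held 0 peaks. The window of Rab35, whose 250 bases shown above hold 39 CG, and that of Rab27a, with 18 CG in its 300 bp, had no peak. The 1 Rab gene with a peak there was Rab34, which acts on lysosome position and cilia. That peak spans bases 267 to 187 before its start, and its 64 bases inside the window hold 2 CG. An internal start of Rab43 also had one, from 203 to 171 bases before that start, and its 33 bases hold 0 CG. Both peaks lie where all positions are multiples of 8. The 250 bases before the start used for Rab17, which lie inside its gene span, hold 3 CG. A peak marks where captured fragments gathered and does not place 5hmC at a given CG.

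Most Rab genes were denser in peaks than their surroundings. In 41 of 59 (69.5%) the window was denser in peaks than the 500 kb on each side of it, against 45.3% of all genes. The surroundings of Rab genes had a median of 0.189 peaks per kb, against 0.125 for all genes, so both the genes and their regions ranked high. Rab27a had 0.621 peaks per kb, against 0.13 around it, a ratio of 4.78. Rab31 had 0.55 against 0.158, and Rab43 0.841 against 0.254. Rab44 lay in the densest surroundings of any Rab gene, with 0.847 against 0.479, and Rab37 had 0.54 against 0.407. Some Rab genes in dense regions had few peaks. Rab6a had 0.0458 per kb against 0.253, and Rab40b 0.0475 against 0.204. Across the 59 Rab genes, the density of the window and that of the surroundings had a Spearman rho of 0.625, and across all genes rho was 0.685. Genes and surroundings share the same library, and this is a description only.

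**Figure D5:**
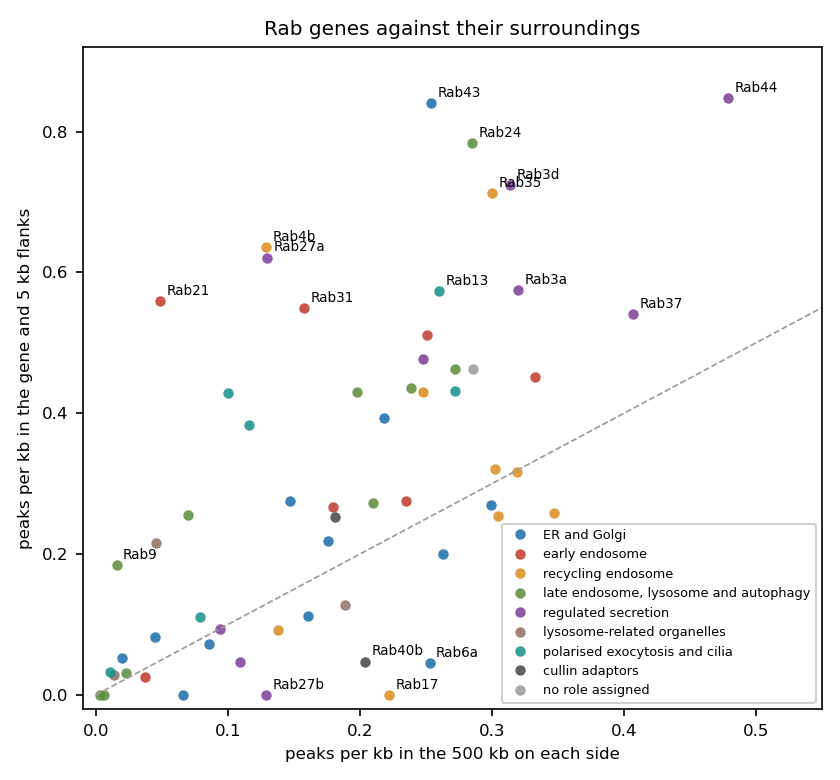
Listed 5hmC peaks per kb in the window of each Rab gene (vertical axis) against peaks per kb in the 500 kb on each side (horizontal axis), coloured by role. The dashed line marks equal densities, and 41 of 59 genes lie above it. Rab21 and Rab9 lie far above surroundings of 0.049 and 0.016, and Rab17, Rab27b, Rab6a and Rab40b lie below the line.

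The genes that act on Rab proteins were set beside them by the same measure. They are long, with a median span of 53.0 kb for exchange factors, 60.5 kb for GTPase-activating proteins and 59.2 kb for effectors. Over all genes the median span was 17.2 kb and 73.1% had a peak, a share not matched for span. Exchange factors, which load Rabs with GTP, had a peak at 35 of 35 genes, with a median percentile of 72.0 among genes of like span. Rin3, an exchange factor of the Rab5 group, had 95 peaks, Dennd2a 39 and Dennd3 33. GTPase-activating proteins, which switch Rabs off, had one at 36 of 38 and a median percentile of 76.2, with 98 peaks at Tbc1d22a, 87 at Tbc1d1 and 86 at Tbc1d8, and none at Tbc1d21 and Tbc1d8b.

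Effectors had a peak at 41 of 45 and a median percentile of 58.8, with 122 peaks at Mical3, 61 at Rab11fip4 and 51 at Sytl3, and none at Mlph, Rims1, Sytl4 and Sytl5. Mlph links Rab27a to myosin in pigment cells and Rims1 acts at synapses.

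Rab genes had a median percentile of 70.0, and the Arf, Arl and Sar genes, small GTPases that also act in membrane traffic, had 64.5. A peak was listed at 26 of the 30 Arf, Arl and Sar genes (86.7%), against 73.1% of all genes. More peaks than the like-span median were listed at 67.8% of Rab genes and 73.3% of the Arf, Arl and Sar genes. Percentile 90 was reached by 12 of the 59 Rab genes (20.3%), 0 of the 30 Arf, Arl and Sar genes and 10.3% of all genes. Denser than their surroundings were 69.5% of Rab genes and 73.3% of the Arf, Arl and Sar genes, and none of these differences was tested. Arl15 had 82 peaks, Arf3 18 and Arl3 16, while Arf4, Arl6, Arl13a and Trim23 had none.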

How the data were processed

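Peaks of 5hmC-captured DNA were analysed from 1 library, index 4, whose list was deposited for both NIDF-AML samples. The sources used here do not say whether index 4 was NIDF-AML or normal marrow. Per the file headers, the authors called peaks with PICS (read length 99 bp, fragment length 200 bp, 250 bp windows moved by 20 bp, at least 3 reads per window and 10 per region). The deposited values are start and end positions of peaks in mm10, per the submitters' processing notes, with no score or other measured value. No source used here names the aligner or a score cutoff.

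The lists did not differ and were counted as 1, and repeated lines (14799, 6.63%) were counted once. Genes came from a RefSeq table of GRCm38.p6. Models starting below 3 Mb on chromosomes other than Y (108) were left out. A peak was assigned by its midpoint to each gene span with 5 kb added on each side. For percentiles, ties counted as midranks. Intervals are exact Poisson or Wilson at 95% and cover counting error only. Starts came from the RefSeq promoter table, taking the start farthest upstream (48 of 59 genes). Counting was tested on simulated data. Python 3.11.15, numpy 2.4.6, pandas 2.3.3 and scipy 1.17.1 were used.

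The members, the gene lists and the rule for named genes (the 3 with most peaks and those with none in each list, the extreme percentiles and paralogue pairs) were chosen with earlier results of these data known. Some gene lists are not reported here. Other windows, overlaps, widths, like-span sets, autosomes alone, repeated lines and left-out replicates were also tried.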

Additional observations from a re-analysis of the deposited data

How the results depend on the processing

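Of the 59 Rab genes, between 53 and 56 had a peak under the alternatives run. Over all genes the share moved too, from 66.6% in the body alone to 75.8% with 10 kb. With autosomes alone, 53 of 55 Rab genes had a peak. Between 36 and 41 of the 59 exceeded the median of their genes of like span, and 38 of the 55 on autosomes did. The count of 36 was against like-span genes that themselves have a peak. For all genes this share was computed under the main setting only, at 44.7%. Counting only peaks of at least 50 bp lowered the median to 5 peaks and 0.17 per kb, against 3 and 0.0737 over all genes. The share of Rab peaks in the body moved with the window by construction, to 87.0% with 2.5 kb and 65.5% with 10 kb, and to 75.3% with repeated lines kept. Leaving out peaks inside another gene's body, an alternative chosen after seeing the data, gave 84.7%, with 54 genes with a peak, a median of 7 and 40 above like-span genes. Over all genes, 70.0% then had a peak and the median was 3. Without NIDF-AML replicate 1 or 2, every value was the same as before (54 genes, a median of 8 and 0.27 per kb, 40 genes, 78.9%), because the lists are identical, which says nothing about stability. No stricter peak threshold could be applied, since no score is listed. No paired analysis was possible because only 1 group had lists and no test was made. Read depth is unknown.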
